A study of Mus musculus with 8 samples.

Results

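Expression of 10 genes of the contractile apparatus and of SRF and YAP signalling was followed over 4 groups of 2 mouse arrays: Acta2, Tagln, Cnn1, Myl9, Tpm1, Tpm2, Actn1, Ccn1 (formerly Cyr61), Ccn2 (formerly Ctgf) and Ankrd1. Their probe sets were found by gene symbol, among 19938 genes whose probe sets name 1 gene, and each is read by 1 probe set. The 10 genes were chosen with earlier results of these data known, so counts among them are a description. The study measured expression in the pre-osteoblastic stromal line MBA-15 and the mammary adenocarcinoma line DA3, grown alone or with each other, to ask how bone stromal and breast carcinoma cells act on one another. For co-culture, DA3 cells were seeded onto a layer of MBA-15 cells in serum-containing medium, and the cells were later trypsinised and sorted on magnets by EpCAM (CD326), which epithelial cells carry on their surface.

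Cells generate force by sliding myosin along actin filaments that tropomyosins, calponins and alpha-actinin stabilise and cross-link. The transcription factor SRF, with MRTF cofactors that respond to the pool of unpolymerised actin, switches on many of these genes. The coactivators YAP and TAZ, which bind TEAD factors and respond to cell density and mechanical load, drive Ccn1, Ccn2 and Ankrd1. In stroma next to a carcinoma, high Acta2 is the usual mark of a myofibroblast.

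The 4 groups were the EpCAM-negative MBA-15 fraction of the co-culture, the MBA-15 control labelled as grown alone, the EpCAM-positive DA3 fraction of the co-culture and the DA3 control labelled as grown alone, all described as 24 h samples. Each group is 1 established line, and nothing in the labels says that its 2 arrays came from separate cultures, so p-values measure the spread between these arrays, which may be technical. The labels also carry an assay number and do not explain it. Assay 4 holds array 1 of co-cultured MBA-15, of MBA-15 alone and of DA3 alone. Assay 3 holds array 2 of these groups and array 1 of co-cultured DA3, and assay 5 holds the other co-cultured DA3 array. The median log2 value of an array ran from 4.479 to 4.642, and the number of arrays limits the precision.

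The arrays labelled MBA-15 alone went against their label in their epithelial markers but not in their stromal markers. Epcam stood at 8.45 and 9.25 there, at 5.58 and 5.19 in co-cultured MBA-15, at 9.30 and 9.38 in co-cultured DA3 and at 9.57 and 9.46 in DA3 alone. Averaged over 20 epithelial markers, the arrays labelled MBA-15 alone read 7.32 and 7.85, those of co-cultured MBA-15 4.82 and 4.71, and those of DA3 alone 8.55 and 8.46. Averaged over 19 stromal markers, the arrays labelled MBA-15 alone read 7.51 and 7.55. For these markers co-cultured MBA-15 read 8.04 and 7.68, and DA3 alone 5.21 and 5.34. The descriptions of all 4 control arrays carry the word mix, without saying what was mixed, beside a mark for the negative (MBA-15) or positive (DA3) fraction. The first comparison below therefore uses co-cultured MBA-15 and DA3 alone, whose markers matched their labels. In RNA of many cells, fewer cells of a type and less RNA per cell cannot be told apart.

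The promoters of Ankrd1 and Ccn1 are shown because both genes are YAP targets and their windows hold the motif of TEAD factors. RefSeq (build GRCm38.p6) gave a window of 250 bases before a transcript start for 8 of the 10 genes, all but Tagln and Ccn2. The windows of Ankrd1 and Ccn1 end where the annotated gene begins. The other 6 windows reach into the annotated gene, by 212 of 250 bases for Acta2 and by all 250 for Tpm1. The table's start is not the outermost one for them, and they are not printed. Each sequence runs 5′ to 3′, and capitals mark the TEAD motif CATTCC, which reads GGAATG where it lies on the other strand.
Ankrd1, chr19:36119845-36120094, minus strand: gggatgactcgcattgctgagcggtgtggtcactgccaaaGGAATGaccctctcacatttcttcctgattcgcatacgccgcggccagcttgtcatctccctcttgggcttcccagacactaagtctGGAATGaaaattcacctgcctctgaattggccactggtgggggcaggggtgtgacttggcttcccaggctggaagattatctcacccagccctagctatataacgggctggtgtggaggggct
Ccn1, chr3:145649986-145650235, minus strand: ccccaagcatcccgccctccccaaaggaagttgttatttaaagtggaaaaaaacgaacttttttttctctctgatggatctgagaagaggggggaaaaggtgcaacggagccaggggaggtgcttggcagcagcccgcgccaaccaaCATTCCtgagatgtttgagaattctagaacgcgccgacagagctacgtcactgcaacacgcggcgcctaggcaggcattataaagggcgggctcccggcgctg

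The motif CATTCC, searched on both strands, was found in 4 of the 8 windows (Acta2, Tpm1, Ccn1 and, at 2 places, Ankrd1) and in 12.6% of all 32851 promoter windows of the table. Its matches in Acta2 and Tpm1 lie inside the annotated gene. A full CArG box, the site of SRF, stood only in the Myl9 window among the 8, as CCTAATAAGG from 161 to 152 bases before the table's start, and in 1.47% of all windows. A form with 1 G or C among its 6 central A or T bases occurred in Myl9, in Acta2 as CCCTATATGG from 84 to 75 bases before the table's start and as CCTTGTTTGG from 34 to 25, and in 7.24% of all windows. Both matches of this form in Acta2 also lie inside the annotated gene. No match overlapped another in these windows. A match describes the letters of the window and not a site in use.

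**Figure D1:**
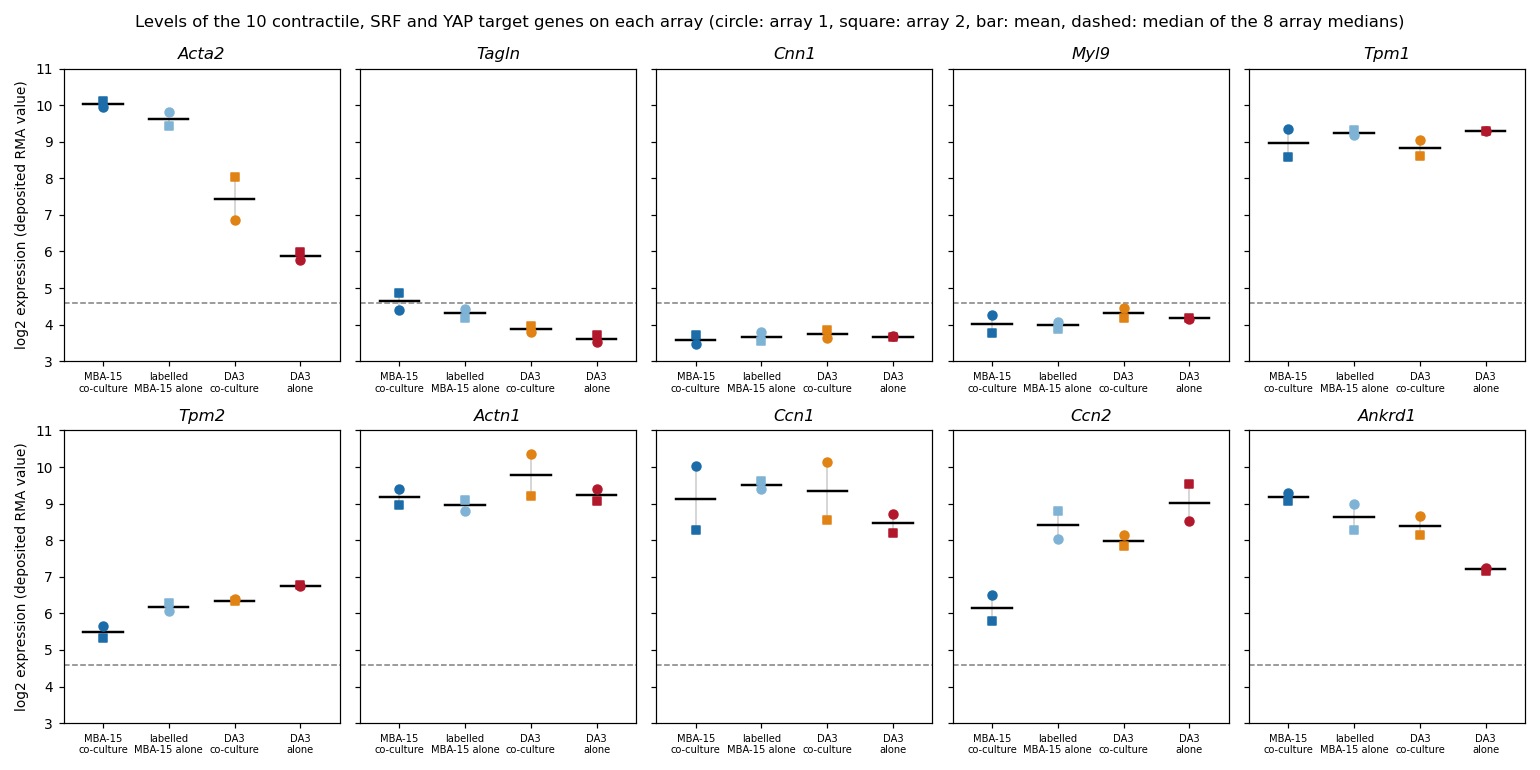
Deposited log2 expression (vertical axis) of the 10 genes in the 4 groups (horizontal axis). Circles are array 1, squares array 2, bars the mean of both, and the dashed line the median of the 8 array medians (4.58). Acta2 and Ankrd1 are highest in co-cultured MBA-15, Ccn2 and Tpm2 are highest in DA3 alone, and Cnn1 and Myl9 stay under the dashed line on every array. Heights are not comparable between panels, since probe sets differ in sensitivity.

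Among the contractile genes, Acta2, the smooth muscle alpha-actin, separated the lines most. Its log2 level was 9.94 and 10.11 in co-cultured MBA-15, 9.81 and 9.43 in the control labelled MBA-15 alone, 6.86 and 8.03 in co-cultured DA3 and 5.78 and 5.98 in DA3 alone. The 4 groups did not overlap in this order, and the co-cultured DA3 arrays lay furthest apart. Its near-identical relatives spanned far less: Actg2 stayed between 3.76 and 4.40, Acta1 between 4.84 and 6.02 and Actc1 between 5.03 and 5.66. Whether the Acta2 probe set also reads other actins was not tested.

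The other smooth muscle genes were dim. Tagln, the actin-binding protein transgelin, read 4.40 and 4.87 in co-cultured MBA-15, 4.42 and 4.19 in the control labelled MBA-15 alone, 3.81 and 3.96 in co-cultured DA3 and 3.52 and 3.71 in DA3 alone. Its means followed the order of Acta2, with an overlap between co-cultured MBA-15 and its control, but it exceeded the median of the array medians, 4.58, on only 1 of the 8 arrays. Cnn1, calponin 1, spanned 0.38 log2 units over all arrays, from 3.48 to 3.86, and Myl9, a regulatory light chain of non-muscle and smooth muscle myosin, spanned 0.69, from 3.77 to 4.46. Both were under 4.58 on all 8 arrays, among the dimmer values of each array.

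The tropomyosins and alpha-actinin stood above the array median in both lines. Tpm1, whose product winds along actin filaments, read 9.35 and 8.57 in co-cultured MBA-15, 9.19 and 9.32 in the control labelled MBA-15 alone, 9.04 and 8.62 in co-cultured DA3 and 9.28 and 9.30 in DA3 alone. Both co-cultured DA3 arrays lay under the arrays of both controls, and the other pairs of groups overlapped. Tpm2, its close relative, ran opposite to Acta2, at 5.66 and 5.33 in co-cultured MBA-15, 6.06 and 6.28 in the control labelled MBA-15 alone, 6.38 and 6.33 in co-cultured DA3 and 6.75 and 6.77 in DA3 alone. Its 4 groups did not overlap. Actn1, the cross-linker alpha-actinin 1, read 9.41 and 8.96, 8.79 and 9.10, 10.36 and 9.22, and 9.40 and 9.06 in the same order of groups, with the highest value on co-cultured DA3 array 1. Its groups overlapped, except that co-cultured DA3 lay above the arrays labelled MBA-15 alone.

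The YAP targets did not share one pattern. Ccn2, a secreted matricellular growth factor modulator, read 6.51 and 5.78 in co-cultured MBA-15, 8.04 and 8.81 in the control labelled MBA-15 alone, 8.15 and 7.83 in co-cultured DA3 and 8.53 and 9.53 in DA3 alone. Both co-cultured MBA-15 arrays lay over 1 log2 unit under every other array. Ccn1, its close relative, read 10.02 and 8.27 in co-cultured MBA-15, 9.40 and 9.61 in the control labelled MBA-15 alone, 10.14 and 8.54 in co-cultured DA3 and 8.73 and 8.19 in DA3 alone. Replicates of each co-culture fraction differed by more than any 2 group means did for this gene, with an SD of 1.24 in co-cultured MBA-15 and 1.12 in co-cultured DA3. Ankrd1, a muscle ankyrin repeat protein and TEAD target, read 9.30 and 9.06 in co-cultured MBA-15, 8.98 and 8.29 in the control labelled MBA-15 alone, 8.66 and 8.14 in co-cultured DA3 and 7.25 and 7.16 in DA3 alone. Its arrays ran in the order of Acta2, with an overlap between the arrays labelled MBA-15 alone and co-cultured DA3.

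The first comparison set co-cultured MBA-15 against DA3 alone and asked how the lines differ in these genes. The groups differ in line and in culture at once, so the parts of each in a difference cannot be told apart. Acta2 was 17.7 times higher in co-cultured MBA-15, at 10.03 ± 0.12 against 5.88 ± 0.15 (SD, n = 2 arrays per group), a difference of 4.14 ± 0.36 log2 units (SE; limma with Benjamini-Hochberg adjustment over all genes, adjusted p = 0.000871). It ranked 61st by absolute difference among the 19938 genes. Ankrd1 was 3.94 times higher (1.98 ± 0.27 log2 units, limma adjusted p = 0.00518) and Tagln 2.03 times higher (1.02 ± 0.19, limma adjusted p = 0.0167), the latter between dim levels of 4.64 and 3.61. Ccn2 was 7.40 times lower in co-cultured MBA-15 (-2.89 ± 0.43 log2 units, limma adjusted p = 0.00667), and Tpm2 2.40 times lower (-1.26 ± 0.15, limma adjusted p = 0.00321).

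Thus 3 of the 10 genes were called higher and 2 lower in limma, where 12.6% of all genes were called (6.08% higher and 6.47% lower), and the same 5 were the ones whose arrays did not overlap (27.2% of all genes higher and 26.6% lower). The median difference of the 10 was -0.06 and their mean 0.31, of opposite sign, beside a median of 0.00 over all genes. The other 5 did not pass. The 95% interval ran from -0.46 to 0.30 log2 units for Cnn1, from -0.63 to 0.31 for Myl9, from -0.97 to 0.31 for Tpm1, from -0.94 to 0.85 for Actn1 and from -0.94 to 2.31 for Ccn1. Within assay 3 and assay 4 the difference was 4.12 and 4.16 for Acta2, 1.91 and 2.05 for Ankrd1, 1.16 and 0.89 for Tagln, -1.44 and -1.09 for Tpm2, and -3.75 and -2.02 for Ccn2. Fitted without both arrays labelled MBA-15 alone, the 5 genes passed again, with limma adjusted p from 0.00261 for Acta2 to 0.0286 for Tagln. The call of Tagln was lost when DA3 alone array 1 (limma adjusted p = 0.126), DA3 alone array 2 (0.0763) or co-cultured MBA-15 array 2 (0.0632) was left out.

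**Figure D2:**
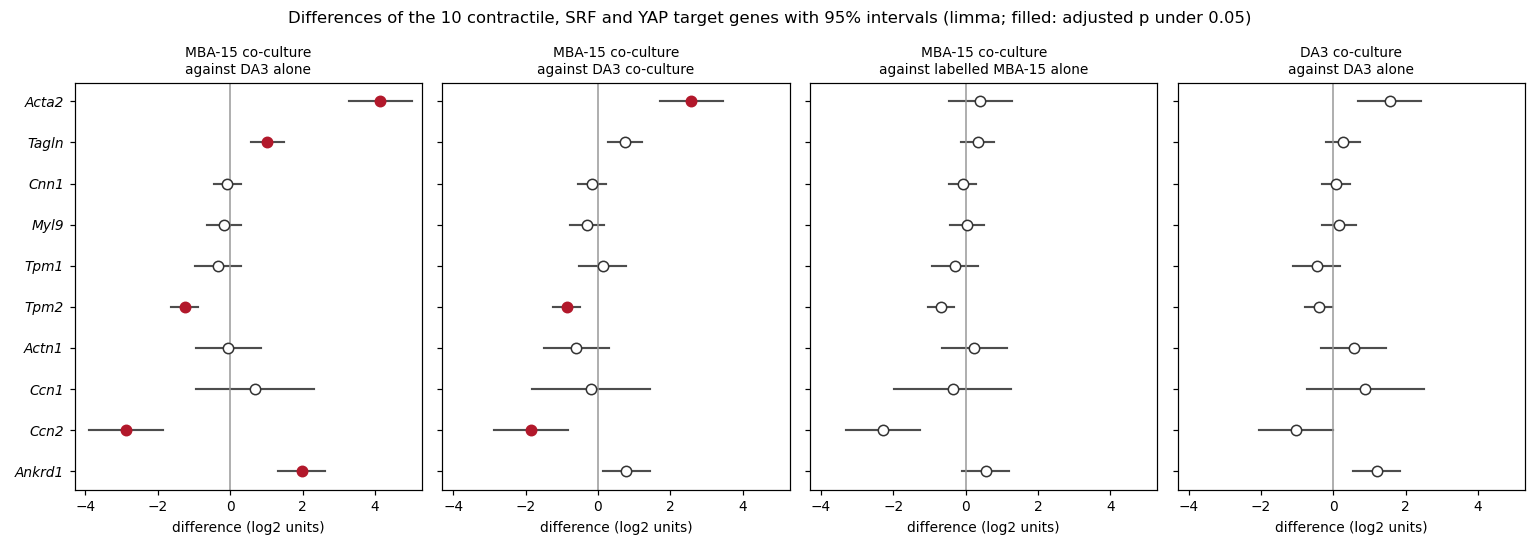
Difference in log2 units (horizontal axis) of each of the 10 genes (vertical axis) in 4 comparisons, with limma's 95% interval as a line. Filled points have an adjusted p under 0.05: 5 genes between co-cultured MBA-15 and DA3 alone, 3 between the 2 co-culture fractions, and 0 in each comparison of co-culture with its control.

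The second comparison set the 2 fractions of the co-culture against each other. Acta2 was 5.99 times higher in the MBA-15 fraction, at 10.03 ± 0.12 against 7.44 ± 0.83 in the DA3 fraction (SD, n = 2; 2.58 ± 0.36 log2 units, SE, limma adjusted p = 0.00633). Ccn2 was 3.59 times lower there (-1.84 ± 0.43, limma adjusted p = 0.0366) and Tpm2 1.81 times lower (-0.86 ± 0.15, limma adjusted p = 0.0156). These were 3 of 10, where 12.8% of all genes were called (8.28% higher and 4.48% lower). Over all genes, 1651 were called higher and 894 lower, against 1392 and 1281 with quantile normalization. Tagln had a value of 0.75 ± 0.19 (limma adjusted p = 0.0505) and Ankrd1 of 0.78 ± 0.27 (limma adjusted p = 0.121), and neither passed, though their arrays did not overlap. Arrays did not overlap for 3 genes higher and 2 lower in the MBA-15 fraction, as in 23.3% and 31.9% of all genes. The median of the 10 was -0.18 and their mean 0.03, of opposite sign, beside a median of -0.07 over all genes.

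Only the call of Acta2 held in every alternative tried for this comparison. With co-cultured DA3 array 1 or co-cultured MBA-15 array 2 left out, 1 of the 10 genes passed, since Ccn2 (limma adjusted p = 0.115 and 0.152) and Tpm2 (0.0541 and 0.0639) were lost. Ccn2 was also lost without co-cultured DA3 array 2 (0.0799). Both were lost in a fit with assay as a block (0.121 for Ccn2 and 0.0816 for Tpm2) and in a fit to these 4 arrays alone (0.0503 and 0.0821), and Tpm2 was lost with a variance trend (0.0546). Tagln passed with quantile normalization (0.0355), with a variance trend (0.0106) and without co-cultured MBA-15 array 1 (0.0305). Within assay 3, the only one that holds both fractions, the difference was 3.25 for Acta2, -2.37 for Ccn2 and -1.05 for Tpm2.

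The third comparison, of co-cultured DA3 with DA3 alone, asked how the carcinoma line responds to the stromal line. None of the 10 genes passed in limma, where 0.0401% of all genes were called, and 4 of the 10 had an unadjusted p under 0.05, as had 14.9% of all genes. Acta2 had the largest value, 1.56 ± 0.36 log2 units (SE, limma adjusted p = 0.193), from 5.88 ± 0.15 in DA3 alone to 7.44 ± 0.83 (SD, n = 2). Ankrd1 had a value of 1.20 ± 0.27 (limma adjusted p = 0.186), from 7.20 ± 0.07 to 8.40 ± 0.37. Among all genes these values lay at the 99.8th and the 99.6th percentile. For Ccn2 the value was -1.04 ± 0.43 (limma adjusted p = 0.328) and for Tpm2 -0.40 ± 0.15 (limma adjusted p = 0.31).

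The arrays of the 2 groups did not overlap for 4 genes that were higher in co-culture (Acta2, Ankrd1, Tagln and Myl9) and 3 that were lower (Ccn2, Tpm1 and Tpm2), which held for 31.4% and 22.4% of all genes. For the dim Myl9 the levels were 4.46 and 4.19 against 4.16 and 4.19, so its nearest arrays are equal at the digits shown. The median value of the 10 was 0.21, beside 0.04 over all genes. Ccn1 had a value of 0.88 with an interval from -0.74 to 2.50, which covers both higher and lower levels in co-culture. Within assay 3 the difference was 0.88 for Acta2, 1.51 for Ankrd1, 1.94 for Ccn1, 1.29 for Actn1 and -1.38 for Ccn2. Of 19 stromal markers on the same arrays, 0 were called in limma. Of them 11 had an unadjusted p under 0.05 (14.9% of all genes) and 12 were higher without overlap (31.4% of all genes). The mean level of the 19 was 6.19 and 5.73 on the co-cultured DA3 arrays. It was 5.21 and 5.34 in DA3 alone and 8.04 and 7.68 in co-cultured MBA-15. The part of stromal RNA in the values of the 10 genes was not tested.

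The fourth comparison asked the same of the stromal line, with the arrays labelled MBA-15 alone as the control. None of the 10 genes passed in limma, where 0.848% of all genes were called (0.0752% higher and 0.772% lower). Of the 10, 2 had an unadjusted p under 0.05, as had 9.80% of all genes. Ccn2 was the larger, at 6.15 ± 0.52 in co-culture and 8.42 ± 0.55 in the control labelled MBA-15 alone (SD, n = 2), a value of -2.28 ± 0.43 log2 units (SE, limma adjusted p = 0.0933). It passed when genes with a mean under 4.58 were left out of the test (limma adjusted p = 0.0173) and with a variance trend (0.0182). Tpm2 had a value of -0.68 ± 0.15 (limma adjusted p = 0.161). The epithelial markers moved the same way, with 15 of 20 called lower (0.772% of all genes) and a median of -3.18, and Ccn2 and Tpm2 are both higher in DA3 alone than in co-cultured MBA-15. The part of epithelial RNA in these values was not tested.

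Acta2 had a value of 0.41 there, with an interval from -0.46 to 1.27, Ankrd1 of 0.55 (from -0.10 to 1.20) and Ccn1 of -0.36 (from -1.99 to 1.26). The median of the 10 was -0.02, beside 0.04 over all genes. Arrays did not overlap for 2 genes higher and 2 lower in co-culture, against 22.3% and 16.1% of all genes. Within assay 3 and assay 4 the value was -3.03 and -1.52 for Ccn2 and -0.95 and -0.40 for Tpm2, and for Ccn1 it was -1.35 and 0.62, of opposite sign.

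The change in co-culture was then compared between the lines in the same fit. The change in MBA-15 was again taken from the arrays labelled MBA-15 alone, whose epithelial markers were high. The 20 epithelial markers had a median of 2.83 in this comparison, with 20 of 20 positive and 3 called (0.0602% of all genes). The part of epithelial RNA in the values below was not tested. None of the 10 genes passed in limma (0.0602% of all genes were called), and 0 had an unadjusted p under 0.05, as against 6.32% of all genes. The value in DA3 minus that in MBA-15 was 1.16 ± 0.51 log2 units for Acta2 (SE, limma adjusted p = 0.813), 1.24 ± 0.96 for Ccn1 (0.999), 1.23 ± 0.60 for Ccn2 (0.866) and 0.65 ± 0.39 for Ankrd1 (0.919). The interval for Acta2 ran from -0.07 to 2.38, so a difference of over 2 log2 units lies within it.

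To set these genes beside others that separate the lines, each level was placed on a linear scale from the mean of DA3 alone (0%) to the mean of co-cultured MBA-15 (100%). Beside them stand 51 genes other than Acta2 over 4 log2 units higher in co-cultured MBA-15 and 30 genes over 4 log2 units higher in DA3 alone, which were chosen on these same arrays and serve as a description. On the co-cultured DA3 arrays the 51 MBA-15 genes had a median of 5.2% (quartiles 3.4 and 6.9%) and 4.6% (2.7 and 7.1%). Acta2 stood at 5.8% on array 1, between those quartiles, and at 20.5% on array 2, above them. Ankrd1 stood at 59.2% and 30.9% and Tagln at 13.7% and 25.4%, above the upper quartile on both arrays. The scale of Ankrd1 covers 3.94-fold and that of Tagln 2.03-fold, so 1 percent is a smaller step there than for Acta2.

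On the arrays labelled MBA-15 alone the 51 MBA-15 genes had a median of 74.7% (58.6 and 91.3%) and 54.8% (44.8 and 71.3%). Acta2 at 85.0% and 64.0% and Tagln at 70.8% and 46.2% lay between these quartiles on both arrays. Ankrd1 did so on array 1 (82.1%) and lay below them on array 2 (37.7%). The 30 DA3 genes stood at 60.6% (56.0 and 66.6%) and 40.1% (32.4 and 43.1%). Ccn2, which is high in DA3, lay within these at 60.8% on array 1 and nearer to DA3 alone on array 2, at 22.1%, while Tpm2 lay at 65.7% and 48.2%. On the co-cultured DA3 arrays Ccn2 stood at 56.1% and 68.0%, where the 30 DA3 genes had medians of 34.6% (15.2 and 64.2%) and 23.7% (7.4 and 50.9%). The 2 DA3 alone arrays themselves put Ccn2 at 38.2% and -38.2%, which is the spread behind its place. The part that RNA of the other line has in these values was not tested.

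**Figure D3:**
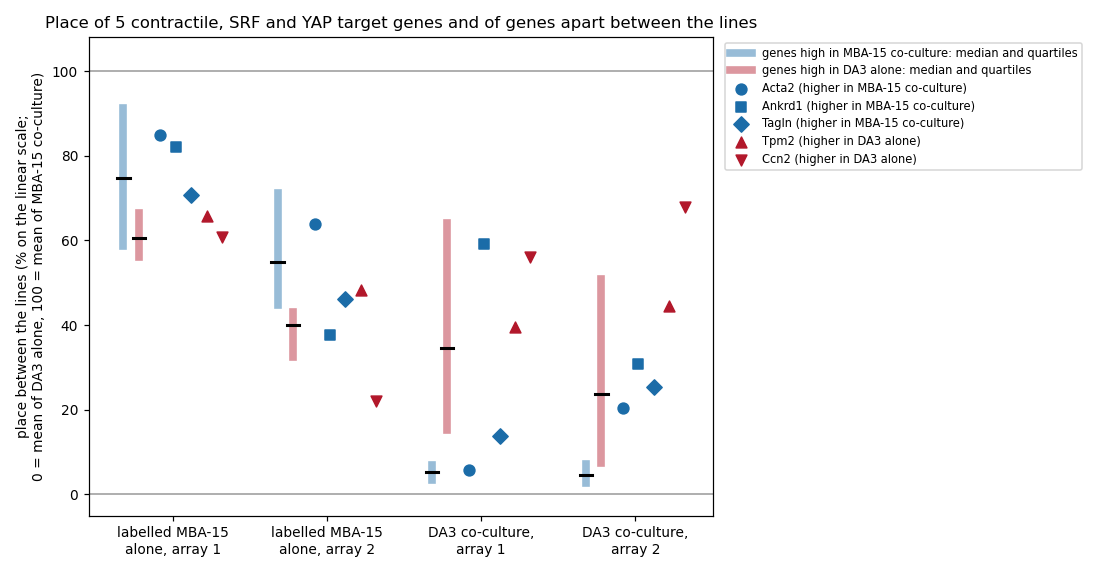
Place of 5 genes (symbols) on the linear scale from the mean of DA3 alone (0%) to the mean of co-cultured MBA-15 (100%, vertical axis) on the 4 arrays of the other groups. Thick bars are quartiles and black ticks medians of 51 genes high in co-cultured MBA-15 (blue) and 30 high in DA3 alone (red). Acta2 lies at 5.8% and 20.5% on the co-cultured DA3 arrays, and Ankrd1 at 59.2% and 30.9%.

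The wider pathway was read from 5 lists. Of 19 other YAP and TAZ targets, 8 were higher and 1 lower in co-cultured MBA-15 than in DA3 alone (limma adjusted p under 0.05; 6.08% and 6.47% of all genes), with a median of 0.78 beside 0.00 over all genes. Nt5e, the ecto-5′-nucleotidase CD73, differed by 3.08 ± 0.19 log2 units (limma adjusted p = 0.000297), the secreted protein gene Ccdc80 by 2.77 ± 0.18, the transcription factor gene Foxf2 by 2.55 ± 0.37 and the RNA-binding protein gene Rbms3 by 1.86 ± 0.21. Ankrd1 thus stood on the side of most of this list and Ccn2 on the other. Between the co-culture fractions 7 of the 19 were higher and 0 lower in limma (8.28% and 4.48% of all genes), with a median of 1.46, beside -0.07 over all genes. Ccdc80 differed there by 2.63 ± 0.18, Nt5e by 2.57 ± 0.19, Foxf2 by 2.19 ± 0.37 and the phosphatase gene Ptpn14 by 1.96 ± 0.41. None of the 19 passed in limma in either comparison with a control (3 in MBA-15 and 4 in DA3 had an unadjusted p under 0.05, as had 9.80% and 14.9% of all genes), with medians of 0.17 and -0.22 beside 0.04 over all genes in both. In MBA-15 the largest values were -0.86 ± 0.36 for Gadd45a (limma adjusted p = 0.514) and -0.68 ± 0.27 for Nuak2 (0.482). In DA3 the largest values were -1.59 ± 0.51 for Crim1 (limma adjusted p = 0.265) and -1.22 ± 0.44 for Asap1 (0.299). Several of the genes named from these lists were dim on one side: Nt5e, Foxf2, Rbms3, Vgll3, Tgfb1i1, Palld and Egr2 lay under 4.58 on both DA3 alone arrays, and Fhl1 on both co-cultured MBA-15 arrays. No detection calls were used here, so the size of a difference against such a level may be understated.

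Of 19 genes of the Hippo pathway and TEAD factors, 2 were higher and 3 lower in co-cultured MBA-15 than in DA3 alone (6.08% and 6.47% of all genes), with a median of -0.64 beside 0.00 over all genes. Nf2, which encodes the Hippo activator merlin, was lower by a value of -3.12 ± 0.55 (limma adjusted p = 0.0132), and so was Wwc1, which encodes its partner KIBRA (-3.09 ± 0.48, limma adjusted p = 0.00784). The kinase gene Stk4 (MST1) was lower as well (-1.34 ± 0.27, limma adjusted p = 0.0214). Vgll3, a TEAD cofactor, was higher by 2.98 ± 0.35 (limma adjusted p = 0.00276). Yap1 itself ranged from 6.78 to 8.19 over the 8 arrays, and Wwtr1, which encodes TAZ, from 6.90 to 7.92. Between the fractions 2 were higher and 1 lower (8.28% and 4.48% of all genes): Tead1 was higher in MBA-15 by 2.24 ± 0.47 (limma adjusted p = 0.0277), beside Vgll3 (2.39 ± 0.35) and, lower, Wwc1 (-2.72 ± 0.48). None of the 19 passed in limma against a control. Of them 3 in MBA-15 and 4 in DA3 had an unadjusted p under 0.05, as had 9.80% and 14.9% of all genes. Nf2 had values of -2.09 ± 0.55 in MBA-15 (limma adjusted p = 0.222) and -1.55 ± 0.55 in DA3 (0.292). The second largest values were -2.05 ± 0.48 for Wwc1 in MBA-15 (0.167) and -1.37 ± 0.47 for Tead1 in DA3 (0.286). Nf2 and Wwc1 are both higher in DA3 alone than in co-cultured MBA-15, and the MBA-15 control carried high epithelial markers. The part of epithelial RNA in their MBA-15 values was not tested.

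Of 36 other genes of the actin cytoskeleton, 5 were higher and 1 lower in co-cultured MBA-15 than in DA3 alone, beside 6.08% and 6.47% of all genes, with a median of 0.27 beside 0.00 over all genes. Tgfb1i1, the focal adhesion protein Hic-5, was higher by 2.02 ± 0.41 (limma adjusted p = 0.0229), and so were the actin cross-linker gene Palld (1.53 ± 0.18) and the caldesmon gene Cald1 (1.53 ± 0.33). Fhl1, a LIM protein, was lower (-1.62 ± 0.19, limma adjusted p = 0.00274). Between the fractions 4 were higher and 1 lower (8.28% and 4.48% of all genes), among them Cald1 (1.61 ± 0.33), Palld (1.21 ± 0.18) and the vinculin gene Vcl (1.21 ± 0.19), and Smtn, which encodes smoothelin, was the one lower (-2.61 ± 0.48, limma adjusted p = 0.0167). None of the 36 passed in limma against a control. Of them 2 in MBA-15 and 4 in DA3 had an unadjusted p under 0.05, as had 9.80% and 14.9% of all genes. Fhl1 had a value of -1.13 ± 0.19 in MBA-15 (limma adjusted p = 0.0655) and -0.89 ± 0.19 in DA3 (0.176). Fhl1 is also higher in DA3 alone than in co-cultured MBA-15, and the part of epithelial RNA in its MBA-15 value was not tested. Smtn had a value of 1.07 ± 0.48 in DA3 (limma adjusted p = 0.359) and -0.92 ± 0.48 in MBA-15 (0.637), and its highest level was 8.99.

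**Figure D4:**
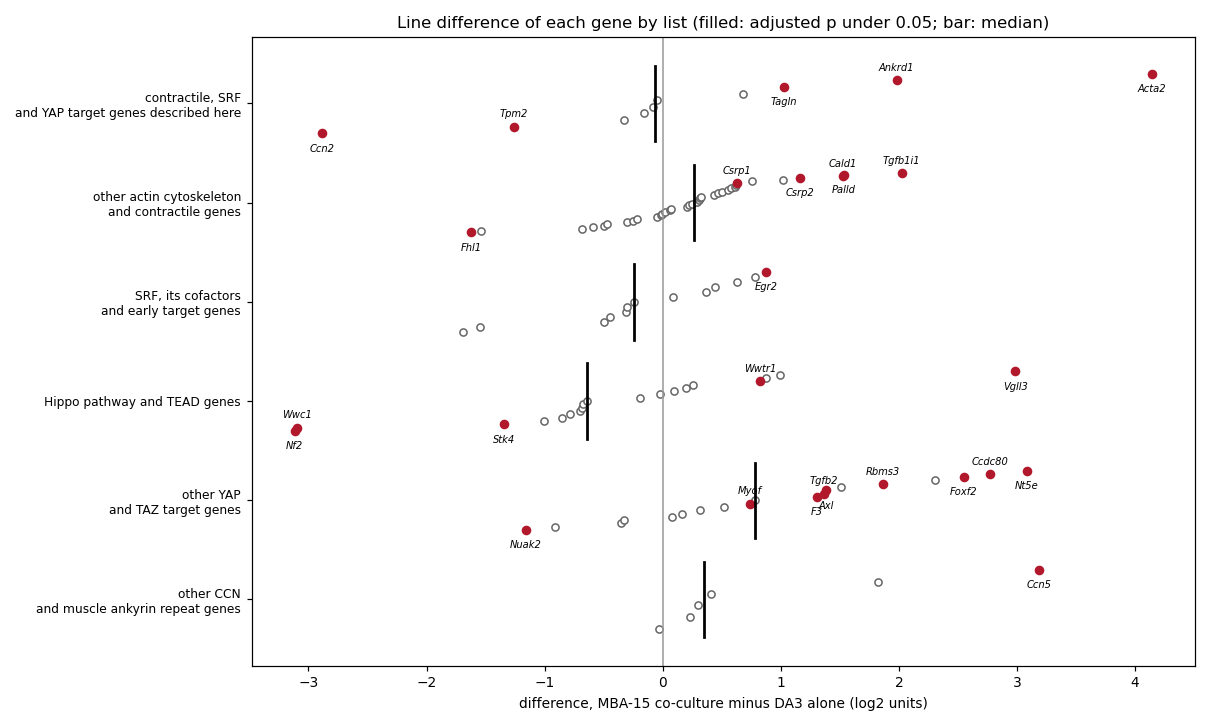
Difference between co-cultured MBA-15 and DA3 alone in log2 units (horizontal axis) for each measured gene of 6 lists (vertical axis). Filled and named points have an adjusted p under 0.05, and black bars are list medians. The 19 other YAP and TAZ targets have a median of 0.78 with 8 called higher, while the 10 genes described here split into 3 higher and 2 lower.

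SRF, its cofactors and its early targets were a list of 13. Between co-cultured MBA-15 and DA3 alone the list median was -0.24, beside 0.00 over all genes. Of the 13, Egr2, an immediate early transcription factor gene, was higher in co-cultured MBA-15 (0.88 ± 0.20, limma adjusted p = 0.035). In this list 0 were lower, where 6.08% of all genes were called higher and 6.47% lower. Fos had a value of -1.69 ± 0.48 (limma adjusted p = 0.0711). Srf ranged from 5.04 to 6.72 over the arrays, and Myocd, the SRF cofactor of smooth muscle, stayed between 3.78 and 4.25, under 4.58 on all 8. None of the 13 passed in limma between the fractions or against a control. There 4, 1 (MBA-15) and 0 (DA3) had an unadjusted p under 0.05. Over all genes this held for 5496 of 19938 between the fractions, and for 9.80% (MBA-15) and 14.9% (DA3) against a control. The largest values were -1.80 ± 0.48 for Fos and -1.25 ± 0.42 for Ier2 between the fractions (limma adjusted p = 0.0581 and 0.111), -1.14 ± 0.42 for Ier2 and -1.02 ± 0.48 for Fos in MBA-15 (0.433 and 0.586), and -0.94 ± 0.48 for Elk4 and 0.80 ± 0.46 for Fosb in DA3 (0.406 and 0.443). Of 6 other CCN and muscle ankyrin repeat genes, Ccn5 was higher in co-cultured MBA-15 than in DA3 alone by 3.19 ± 0.21 (limma adjusted p = 0.000353) and than in co-cultured DA3 by 2.62 ± 0.21, while Ccn3 had a value of 1.82 ± 0.55 against DA3 alone (0.085). Ccn4 was higher in the MBA-15 than in the DA3 fraction by 2.20 ± 0.23 (limma adjusted p = 0.00237), and its value in co-cultured DA3 against DA3 alone was -1.79 ± 0.23 (limma adjusted p = 0.0844). None of the 6 passed in limma against a control. Of them 0 in MBA-15 and 2 in DA3 had an unadjusted p under 0.05, beside 9.80% and 14.9% of all genes. Ccn5 had a value of 0.56 ± 0.21 in DA3 against its control (limma adjusted p = 0.31). The dim Ankrd2 and Ccn6 had values of 0.27 ± 0.14 (0.634) and 0.18 ± 0.16 (0.787) in MBA-15. None of the genes of the 5 lists passed in limma in the comparison of the changes between the lines, where 2 actin, 3 Hippo and 1 of the CCN and ankyrin genes had an unadjusted p under 0.05, as had 6.32% of all genes. The largest values of DA3 minus MBA-15 were -2.11 ± 0.67 for Tead1 (limma adjusted p = 0.607), 1.99 ± 0.68 for Smtn (0.638) and -1.94 ± 0.33 for Ccn4 (0.193).

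Markers of smooth muscle and myoepithelial cells were mostly dim, where 52.5% of all genes had a mean over all arrays above 4.58. Of 10 smooth muscle markers, 1 (Smtn) had a mean over all arrays above 4.58, and the mean level of the list lay between 4.07 and 4.52 on the 8 arrays. Of 8 myoepithelial markers 3 did, with list means from 3.99 to 4.63. Among them Cdh3 read 7.34 and 7.32 in DA3 alone and 3.93 and 4.21 in co-cultured MBA-15. Of 10 skeletal and cardiac muscle markers 5 had a mean above 4.58, near the share over all genes, with list means from 4.45 to 4.97. Of 9 leukocyte and 10 endothelial markers 1 each did. Among the stromal markers 13 of 19 were called higher in co-cultured MBA-15 than in DA3 alone (6.08% of all genes), but Thy1, Lum, Dcn and Fap stayed below 4.58 on all 8 arrays.

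Over the 8 arrays, which share 2 lines and are not independent, Acta2 correlated with Tagln at a Pearson r of 0.93 and with Ankrd1 at 0.86. Tpm2 and Ccn2 correlated at 0.93 with each other, and Tpm2 at -0.87 with Acta2. A search for the gene with the most similar levels covered genes outside the 10 with a mean above 4.58. It left out loci with only a provisional symbol. Within this search, the closest gene to Acta2 was Ptgr1 (r = 0.99), an enzyme that reduces prostaglandins. Ptgr1 read 7.91 and 7.93 in co-cultured MBA-15 and 4.54 and 4.77 in DA3 alone. For Ankrd1 the closest was Ccdc85b (0.987), for Ccn2 Arhgef3 (0.981), for Ccn1 Zfp36l2 (0.959), for Tpm1 Igsf3 (0.987), for Tpm2 Rab27a (0.99) and for Actn1 Rapgef2 (0.988). For the dim genes the closest was S100a1 for Tagln (0.992), Zfp410 for Cnn1 (0.98) and Tssk2 for Myl9 (0.953). Each r is the highest among many candidates on 8 arrays, so a high value can arise from the selection alone. Even Cnn1, which spanned 0.38 log2 units, reached 0.98.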

How the data were processed

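RNA of 8 samples was hybridised to Affymetrix MoGene 1.0 ST arrays. The authors deposited 1 log2 value per probe set and array. The tools, RMA and Partek 6.5, are those of the submitters' processing notes. Parameters are not given in the sources used here, and the log2 scale was read from the range of the values. A value is relative to the other probe sets of its array. The platform annotation gave 1 symbol to 21789 of 35556 probe sets and several to 1621, and 12146 stayed unnamed here. Of several probe sets of a gene the one with the highest mean was kept, with no filter on dim genes. Differences of group means came from 1 limma fit over the 8 arrays (limma 3.58.1, R 4.3.3, 4 residual and 2.6 prior degrees of freedom), two-sided, with Benjamini-Hochberg adjustment over 19938 genes at 0.05. A run on data simulated from the variances of the fit checked only the mean size of planted changes in the DA3 comparison. It cannot tell whether the calls here would hold in separate cultures. The genes described and the lists were chosen with earlier results of these data known. From each list at most 4 genes per comparison were to be named, the largest that passed, filled to 2 with the largest that did not. For the comparison of changes between the lines, only the 3 largest values are given. Yap1, Wwtr1, Srf, Myocd, the 3 actin genes and the stromal markers named at dim levels were added after their values were seen, as was the search for the CArG form with a changed base. The alternatives were other probe set rules, filters, scalings and variance models, a block on assay or replicate number, fewer groups and each array left out. A fit without both arrays labelled MBA-15 alone was chosen after seeing the data.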

Additional observations from a re-analysis of the deposited data

How the results depend on the processing

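The 5 calls between co-cultured MBA-15 and DA3 alone held in every alternative except those named for Tagln, and Tagln was not tested where dim genes were left out. No call of the 10 genes turned its direction. Of the 10 genes, 1 passed between co-cultured MBA-15 and the arrays labelled MBA-15 alone with dim genes left out and 1 with a variance trend (0 as deposited). Between the fractions 1 passed with assay as a block and 1 with only the groups compared, and leaving out single arrays left 1 to 4. Over all genes, for co-culture against control in each line, leaving out dim ones gave 256 calls for MBA-15 (169 as deposited), 75 for DA3 (8) and 44 for the difference of the changes (12). A variance trend gave 326, 120 and 36. Median centring gave 14 for DA3. Quantile normalization gave 1 for DA3 and 25 for the difference, and between the fractions it split the calls into 1392 higher and 1281 lower (1651 and 894 as deposited). With only the groups compared, the counts were 28 for MBA-15, 0 for DA3 and 1123 between the fractions (2545). Assay as a block gave 0 for DA3 and 0 for the difference. Without both arrays labelled MBA-15 alone, 2 genes were called for DA3. Leaving out single arrays gave 13 to 198 calls for MBA-15, 0 to 3 for DA3, 995 to 2870 between co-cultured MBA-15 and DA3 alone (2503), 1642 to 2229 between the fractions and 0 to 8 for the difference. An arm left with 1 array is assumed to vary like the others. The cause was not tested.

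Deviations of same-numbered arrays from their group means correlated between -0.41 and 0.31 over the 6 pairs of groups. Array 1 is of assay 3 in co-cultured DA3 and of assay 4 in the other groups. These correlations therefore do not settle whether the arrays were paired. With the replicate block 3 genes were called for DA3 and 0 for the difference. Between the fractions the block left 3 of the 10 genes called, with Ankrd1 (limma adjusted p = 0.0494) in and Ccn2 (0.0547) out. Cnn1 and Myl9 lie under 4.58 on all 8 arrays, where differences may be understated.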
